A study of Mus musculus with 18 samples.

Results

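Aminoacyl-tRNA synthetases were followed in 18 mouse tumour transcriptomes. The members were the 36 synthetase genes given by symbol, 20 of the cytosolic machinery and 16 of the mitochondrial machinery (symbols ending in 2), out of 21015 genes in the table. All 36 were found in the table and passed the filter on low counts. MC38-OVA cells, a mouse colon carcinoma line that carries the model antigen ovalbumin, were implanted into Adra2a KO or wild-type mice, and RNA was taken from whole tumours. Mice were 10 weeks old, received clonidine, guanabenz or PBS once a day into the peritoneum, and gave tumours at day 7 of treatment. There were 3 libraries in each of 6 groups: KO-Clonidine, KO-Guanabenz and KO-Control (PBS) in Adra2a KO hosts, then WT-Clonidine, WT-Guanabenz and WT-Control (PBS) in wild-type hosts. Every group carried the same tumour line, so Adra2a was lost from host cells and not from the implanted cells. The 3 KO-Guanabenz libraries were grouped by their titles, although their treatment entry reads Untreated. The labels do not say that the libraries of a group came from different mice. Y-linked transcripts, defined below, were held by 2 of 3 libraries in both guanabenz groups, and likewise in KO-Control and in WT-Clonidine. The libraries within each of these groups thus differed in this respect. In KO-Clonidine (0 of 3) and WT-Control (3 of 3) they did not. The technical part of the spread on which the tests rest was not tested.

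Each synthetase joins 1 kind of amino acid to its tRNA, which the ribosome then uses. The cytosolic and mitochondrial sets are encoded by separate nuclear genes for most amino acids, while Gars and Kars each serve both compartments. Several cytosolic enzymes sit together in the multisynthetase complex. Many cytosolic synthetase genes are known targets of ATF4, the transcription factor of the amino acid response, and Wars is known as an interferon-inducible gene. Adra2a encodes the alpha-2A adrenergic receptor, for which clonidine and guanabenz are agonists.

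Library totals ran from 54683838 to 491137160 estimated counts, and levels are in CPM, counts scaled to a common library total with TMM factors. Adra2a was at 0.0917 to 0.293 CPM in the 9 KO libraries and 0.286 to 0.589 CPM in the 9 WT libraries, so the level was low in all tumours and both ranges touched. Epithelial markers (Krt7, Krt8, Krt18, Krt19 and Epcam) summed to only 1.28 to 4.27 CPM in every library, and the share of carcinoma cells was not measured. Macrophage and monocyte markers summed to 3360 to 4410 CPM and fibroblast markers to 11700 to 20900 CPM. In whole tumours, fewer cells of a type and less RNA per cell cannot be told apart.

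The promoters of 4 cytosolic genes are given below as a description. They are the 250 bases before the RefSeq start (build GRCm38.p6, gene strand, 5′ to 3′) of Sars, the synthetase with the largest change in KO-Clonidine against WT-Clonidine tumours, and of Aars, Gars and Tars, the members in which the pattern TGATGNAA lay before the start. Capitals mark this pattern, the composite element bound by ATF4 with C/EBP proteins, read here on the opposite strand. Sars lies at chr3:108445260-108445509 on the minus strand, Aars at chr8:111033592-111033841 on the plus strand, Gars at chr6:55037751-55038000 on the plus strand, and Tars at chr15:11399659-11399908 on the minus strand. For Sars, Gars and Tars the stretch ends at the outer boundary of the RefSeq gene. For Aars the RefSeq gene begins at chr8:111027778, so its stretch lies inside the gene, before a start within it.
Sars: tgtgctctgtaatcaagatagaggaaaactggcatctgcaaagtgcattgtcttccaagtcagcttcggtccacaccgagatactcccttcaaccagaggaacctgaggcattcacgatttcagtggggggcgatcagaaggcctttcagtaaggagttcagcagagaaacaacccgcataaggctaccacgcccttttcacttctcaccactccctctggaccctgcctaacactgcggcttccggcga
Aars: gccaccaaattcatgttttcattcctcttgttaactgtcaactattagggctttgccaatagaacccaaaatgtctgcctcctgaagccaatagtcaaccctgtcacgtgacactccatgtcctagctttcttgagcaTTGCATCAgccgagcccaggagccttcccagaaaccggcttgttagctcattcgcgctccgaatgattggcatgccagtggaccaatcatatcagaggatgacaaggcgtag
Gars: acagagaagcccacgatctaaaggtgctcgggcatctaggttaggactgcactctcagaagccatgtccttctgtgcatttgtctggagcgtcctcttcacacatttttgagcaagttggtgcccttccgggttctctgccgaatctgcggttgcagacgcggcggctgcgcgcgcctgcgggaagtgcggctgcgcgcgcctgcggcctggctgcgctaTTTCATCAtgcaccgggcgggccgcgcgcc
Tars: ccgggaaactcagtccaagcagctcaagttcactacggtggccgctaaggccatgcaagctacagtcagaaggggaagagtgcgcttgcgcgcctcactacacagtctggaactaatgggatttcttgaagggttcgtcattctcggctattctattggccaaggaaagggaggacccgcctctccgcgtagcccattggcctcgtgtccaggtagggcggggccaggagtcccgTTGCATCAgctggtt

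Promoters of 300 bases (250 before the start and 50 after it) were at hand for 13 cytosolic and 14 mitochondrial members. TGATGNAA, searched on both strands, lay in 5 of the 13 cytosolic promoters (38.5%) and in 0 of the 14 mitochondrial ones, against 4.51% of 27025 genes with a promoter in the table. In Aars its first base lay 112 bases before the start used here, which is inside the gene, and again at base 10 after it. In Gars it lay 30 bases before the start, and in Tars 15 before. In Iars and Yars it lay just after the start, at bases 8 and 4. CACGTG, the E-box, which reads the same on both strands, lay in 4 of 13 cytosolic promoters (Aars, Farsb, Iars and Tars; 30.8%) and in that of Ears2 among the mitochondrial ones (7.14%), against 8.09% of all genes. The patterns did not overlap one another in these promoters. Of the 5 cytosolic genes with TGATGNAA, only Yars was among the 8 that rose by edgeR in KO-Clonidine against WT-Clonidine tumours, given below. Aars, Gars, Iars and Tars were not among these 8, though DESeq2 and limma-voom also called Aars and Gars. Sars, with the largest change, held no match. A match of letters is a description and not a binding site. The part of this pattern in the changes was not tested.

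Cytosolic enzymes were the more abundant set. Per kilobase of the principal transcript, the mean over 18 libraries ran from 25.7 (Farsb, the beta subunit of phenylalanyl-tRNA synthetase) to 130 CPM per kb (Kars, the lysine enzyme), with a median of 47.0 CPM per kb. Mitochondrial enzymes other than Lars2 ran from 1.53 (Mars2, whose annotated transcript has 11294 bases) to 20.4 CPM per kb (Tars2), with a median of 6.64. Every one of these 15 therefore lay below every cytosolic gene. After Kars came Vars (125), Nars (108) and Gars (105 CPM per kb), and after Tars2 came Yars2 (15.7) and Iars2 (13.9 CPM per kb).

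Lars2, the mitochondrial leucine enzyme, stood apart from all other members. It held 0.65% to 2.76% of a library's counts and had the highest median share of any gene, 1.37%, ahead of Col3a1 at 0.792%. Its level ranged 4.46-fold, 6220 to 27700 CPM, while the other 35 members ranged 1.17-fold to 1.6-fold over the 18 libraries. Its principal transcript shares sequence in the 3′ UTR with a pair of other transcripts: 196 bases at 80.1% identity with AA474408 and 72 bases at 98.6% identity with Gm15564, neither of which has a row in the table. The part of such reads in its count was not tested. Lars2 is therefore given apart, and mitochondrial values are also given without it. Hars and Hars2, which lie head to head, overlap only at their outermost bases, 36783202 to 36783205 on chromosome 18. No source used here states whether the libraries were stranded. The part of shared reads in the counts of this pair was not tested.

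**Figure D1:**
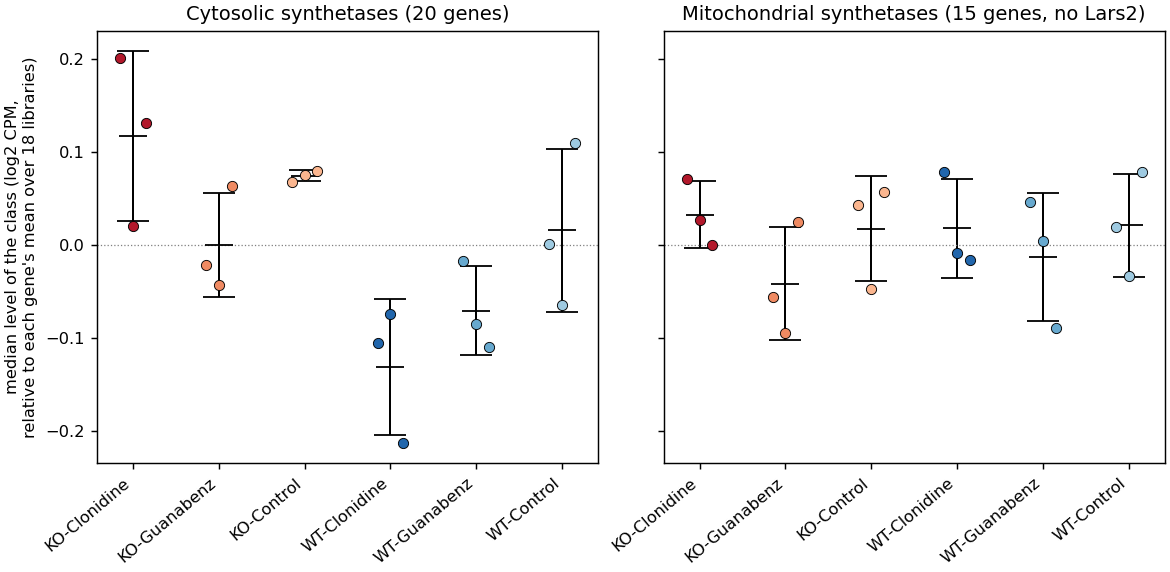
Median level of the 20 cytosolic (left) and of 15 mitochondrial synthetases without Lars2 (right) in each library, in log2 CPM relative to each gene's mean over the 18 libraries; points are libraries, bars the group mean and SD (n = 3). All 3 KO-Clonidine libraries lie above all 3 WT-Clonidine libraries in the left panel, while the groups overlap in the right panel.

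Across the 6 groups the cytosolic set varied and the mitochondrial set varied less. The centred cytosolic median was 0.20, 0.02 and 0.13 log2 units in the KO-Clonidine libraries, a mean of 0.12 ± 0.09 (SD, n = 3). It averaged 0.00 ± 0.06 in KO-Guanabenz and 0.07 ± 0.006 in KO-Control tumours. In wild-type hosts it averaged -0.13 ± 0.07 in WT-Clonidine, -0.07 ± 0.05 in WT-Guanabenz and 0.02 ± 0.09 in WT-Control tumours. WT-Clonidine was the lowest group by its mean. Its libraries, from -0.21 to -0.07, overlapped those of WT-Guanabenz, from -0.11 to -0.02, and lay below all libraries of the other 4 groups. The mitochondrial median without Lars2 had group means between -0.04 in KO-Guanabenz and 0.03 in KO-Clonidine tumours, with SDs of 0.036 to 0.069, and all 6 groups overlapped.

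The gap between both sets was taken within each library as the mean cytosolic minus the mean mitochondrial log2 CPM, without Lars2. It was 3.08 ± 0.058 in KO-Clonidine, 3.04 ± 0.022 in KO-Guanabenz and 3.07 ± 0.049 in KO-Control tumours. It was 2.86 ± 0.054 in WT-Clonidine, 2.95 ± 0.032 in WT-Guanabenz and 3.00 ± 0.022 in WT-Control tumours (SD, n = 3 each). The 3 WT-Clonidine libraries, at 2.82 to 2.92, lay below all 9 KO libraries, at 3.02 to 3.13, and below all 3 WT-Control libraries, at 2.99 to 3.03. No test was made of these values, which sum over the members.

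By the cytosolic median, the synthetases differed most between host genotypes under clonidine. In KO-Clonidine against WT-Clonidine tumours, 8 of 20 cytosolic genes rose (edgeR quasi-likelihood test, Benjamini-Hochberg adjusted p under 0.05 over 16115 genes), where 1.82% of all genes did. They were Sars, Mars1, Yars, Cars, Vars, Nars, Lars and Rars, by 0.26 to 0.43 on the log2 scale. No mitochondrial gene passed the test, with edgeR, DESeq2 or limma-voom. The cytosolic median change was 0.26, with 19 of 20 genes above 0, against 0.04 for the 16 mitochondrial genes (0.03 without Lars2) and -0.01 for all genes tested. At an unadjusted p under 0.05, 15 of 20 cytosolic genes were higher, where 11.1% of all genes were.

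**Figure D2:**
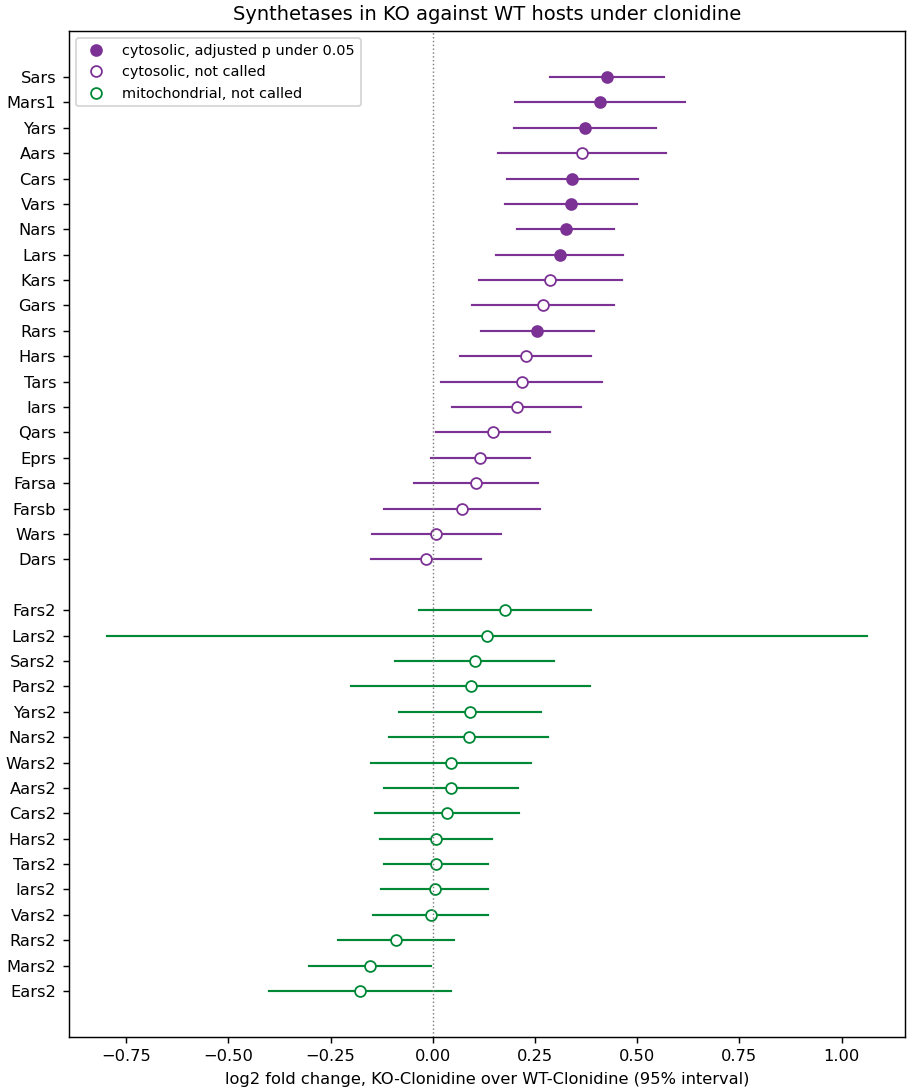
Log2 fold change of each synthetase in KO-Clonidine over WT-Clonidine tumours with its 95% interval; cytosolic genes above, mitochondrial genes below, each sorted by change. Filled points are the 8 cytosolic genes with an adjusted p under 0.05; the interval of Lars2 runs from -0.80 to 1.06.

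Outside the multisynthetase complex, 5 of 12 cytosolic genes rose. Sars, the serine enzyme, had 372, 339 and 371 CPM in KO-Clonidine tumours, against 279, 267 and 259 CPM in WT-Clonidine tumours. Its change was 0.43 ± 0.066 (SE; adjusted p = 0.018), and every KO-Clonidine library was above every WT-Clonidine library. Nars, the asparagine enzyme, had 332, 298 and 335 CPM in KO-Clonidine tumours, against 261, 263 and 246 CPM in WT-Clonidine tumours. The change of Nars was 0.32 ± 0.056 (adjusted p = 0.018), again with no overlap. Yars, the tyrosine enzyme, had 97.1, 85.1 and 93.3 CPM in KO-Clonidine tumours and 72.7, 74.1 and 66.0 CPM in WT-Clonidine tumours, a change of 0.37 ± 0.082 (adjusted p = 0.030). The groups were separate for Yars too, with the second KO-Clonidine library nearest to the WT-Clonidine libraries.

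Cars, which charges cysteine, had 110, 87.8 and 98.2 CPM in KO-Clonidine tumours and 78.5, 79.4 and 75.6 CPM in WT-Clonidine tumours (0.34 ± 0.076; adjusted p = 0.030). Vars, the valine enzyme and the synthetase with the most counts of the cytosolic set, had 608, 555 and 573 CPM in KO-Clonidine tumours and 482, 463 and 428 CPM in WT-Clonidine tumours (0.34 ± 0.076; adjusted p = 0.033). In both genes the lowest KO-Clonidine library was the second one, and it was still above all 3 WT-Clonidine libraries.

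Among the 8 enzymes of the complex, 3 rose. Mars1, the methionine enzyme, had 117, 104 and 114 CPM in KO-Clonidine tumours and 89.1, 89.5 and 73.5 CPM in WT-Clonidine tumours (0.41 ± 0.098; adjusted p = 0.041). Lars, the leucine enzyme and a known leucine sensor upstream of mTORC1, had 126, 115 and 121 CPM in KO-Clonidine tumours and 97.3, 103 and 91.0 CPM in WT-Clonidine tumours (0.31 ± 0.073; adjusted p = 0.038). Rars, the arginine enzyme, had 240, 212 and 230 CPM in KO-Clonidine tumours and 194, 199 and 178 CPM in WT-Clonidine tumours (0.26 ± 0.066; adjusted p = 0.049). None of these 3 genes overlapped between the groups. Of the other complex enzymes, Kars was at 0.29 (adjusted p = 0.071), Iars (isoleucine) at 0.21 and Qars (glutamine) at 0.15. Eprs, the fused glutamate and proline enzyme, was at 0.12 (adjusted p = 0.27). The complex enzymes had a median of 0.23, against 0.30 for the 12 genes outside it.

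The remaining cytosolic genes did not pass the edgeR test. DESeq2 and limma-voom did call Aars and Gars, and also Kars, where they called 8.43% and 7.87% of all genes. Aars, the alanine enzyme, had 457, 365 and 410 CPM in KO-Clonidine tumours and 322, 327 and 307 CPM in WT-Clonidine tumours, with no overlap and a difference of 0.37 ± 0.097 (adjusted p = 0.055). Gars (glycine), Hars (histidine) and Tars (threonine) were at 0.27, 0.23 and 0.22, with adjusted p = 0.085, 0.11 and 0.21. Farsa and Farsb, both subunits of the phenylalanine enzyme, were at 0.11 and 0.07. Dars, the aspartate enzyme of the complex, was the 1 cytosolic gene below 0, at -0.02 with a 95% interval from -0.15 to 0.12. Dars had 107, 101 and 115 CPM in KO-Clonidine tumours and 111, 112 and 104 CPM in WT-Clonidine tumours, fully overlapping. Wars, the tryptophan enzyme, was at 0.01, with an interval from -0.15 to 0.17. In 14 of the 20 cytosolic genes all 3 KO-Clonidine libraries lay above all 3 WT-Clonidine libraries, where 14.2% of all genes did, and so did 2 of the 16 mitochondrial genes.

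**Figure D3:**
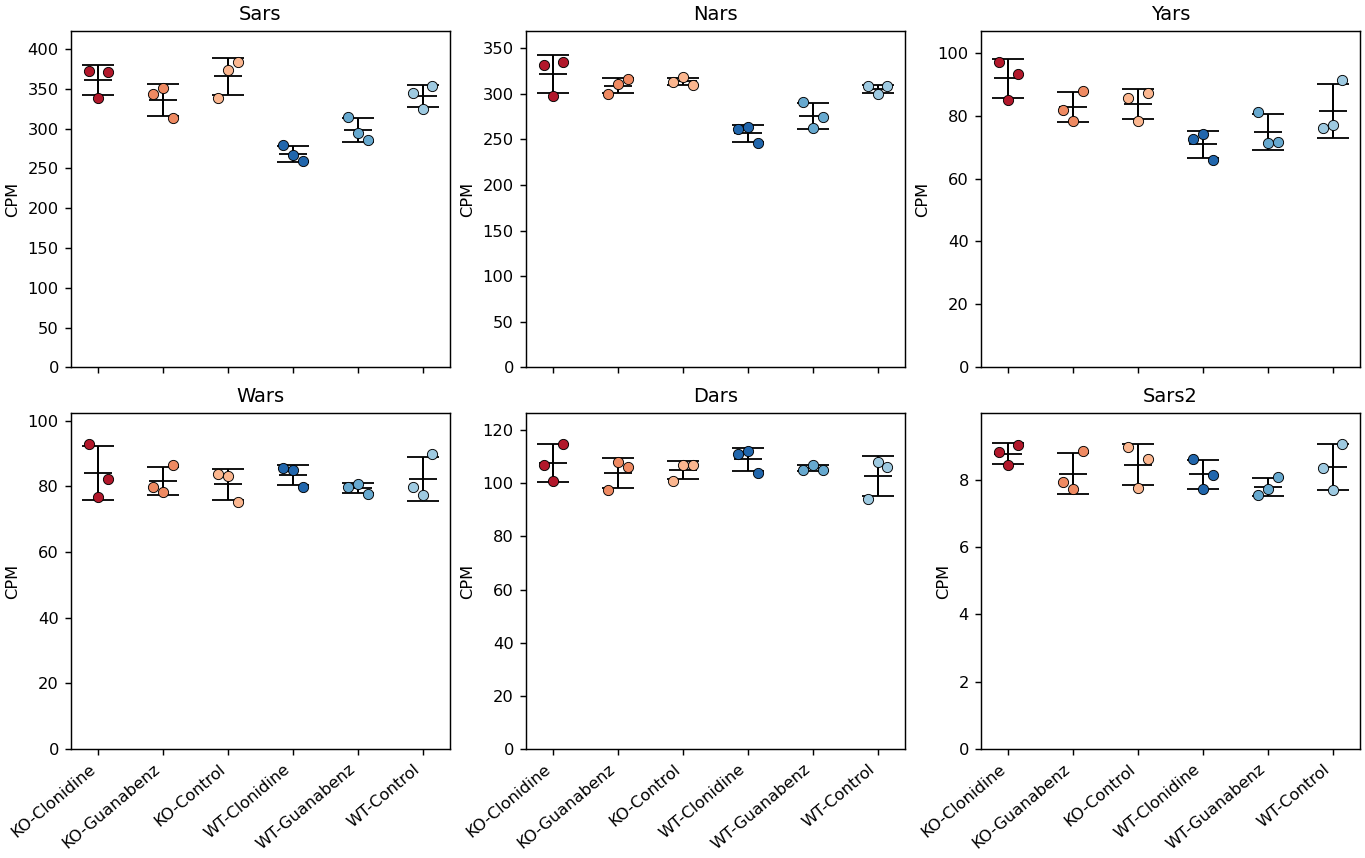
Levels of Sars, Nars and Yars (top) and of Wars, Dars and the mitochondrial Sars2 (bottom) in CPM by group; points are libraries, bars the mean and SD (n = 3), and axes start at 0. In the top row WT-Clonidine is the lowest group by mean. In the bottom row the groups overlap, except for Sars2 between KO-Clonidine (8.43 to 9.04 CPM) and WT-Guanabenz (7.56 to 8.07 CPM).

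The mitochondrial partners were compared gene by gene. In 13 pairs the symbols differ only by the 2, and the cytosolic change was above the mitochondrial one in 12 of these 13 pairs, with a median gap of 0.28 over the pairs. Sars2 had 8.84, 8.43 and 9.04 CPM in KO-Clonidine tumours and 8.61, 7.74 and 8.15 CPM in WT-Clonidine tumours, overlapping, with a difference of 0.10 (95% interval -0.09 to 0.30). Tryptophan was the exception among the 13, with Wars at 0.01 and Wars2 at 0.05. Outside these pairs, both phenylalanine subunits, Farsa at 0.11 and Farsb at 0.07, were also below Fars2 at 0.18, while Eprs at 0.12 was above Ears2 at -0.18 and Pars2, for proline, at 0.09. The widest gap of the 13 was for methionine, since Mars2 was at -0.15 (unadjusted p = 0.044, adjusted p = 0.24). Mars2 had 17.5, 17.6 and 15.3 CPM in KO-Clonidine tumours and 18.2, 18.8 and 19.0 CPM in WT-Clonidine tumours, with no overlap. KO-Clonidine lay wholly below WT-Clonidine in 1 of 16 mitochondrial genes, and in 12.7% of all genes. The other mitochondrial genes lay between -0.18 (Ears2, glutamate) and 0.18 (Fars2, phenylalanine). The 95% intervals were narrow for Tars2 (-0.12 to 0.14), Iars2 (-0.13 to 0.14), Hars2 (-0.13 to 0.15) and Vars2 (-0.15 to 0.14), and their upper bounds were below the change of Sars. Lars2, at 0.13 ± 0.44, was not measured closely. The same 13 pairs were counted without clonidine. The cytosolic change was above in 12 of 13 for KO-Guanabenz against WT-Guanabenz tumours (median gap 0.13). It was above in 9 of 13 for KO-Control against WT-Control tumours (median gap 0.09). The difference between the sets as such was not tested.

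These 8 calls rested on few libraries. None remained without WT-Clonidine 2, WT-Clonidine 3 or KO-Clonidine 3, 1 remained without KO-Clonidine 1, 2 without WT-Clonidine 1, and 5 without WT-Guanabenz 2 or KO-Guanabenz 1, while the cytosolic median stayed between 0.22 and 0.31. None was called with these groups fitted alone, and 2 (Nars and Sars) with total counts in place of TMM scaling, which put the median of all genes at -0.09, or with the KO-Guanabenz libraries read as KO-Control. DESeq2 and limma-voom each called 11 cytosolic members, the same 8 with Aars, Gars and Kars. They called 8.43% and 7.87% of all genes in either direction. Calls over all genes moved as well. By edgeR they numbered 403 in either direction with all libraries, and 1 to 517 with single libraries left out.

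Other sets of genes differed in the same comparison. Of the 32 genes of the ATF4 amino acid response list, 12 rose, with a median of 0.33, among them Trib3 (1.02 ± 0.18, adjusted p = 0.018), an ATF4-induced pseudokinase, and Asns (0.59 ± 0.11, adjusted p = 0.020), asparagine synthetase. Ddit4, an inhibitor of mTORC1, changed by 0.94 ± 0.14 (adjusted p = 0.018), while Atf4 itself was at 0.30 ± 0.082 (adjusted p = 0.059). Of 6 cytosolic elongation factor genes, Eef2, which moves the ribosome along, rose (0.35 ± 0.081, adjusted p = 0.033), and all 6 were above 0 with a median of 0.26. Of 11 genes of tRNA splicing and ligation, Rtcb, the tRNA ligase, rose (0.31 ± 0.054, adjusted p = 0.018). Aimp1, a scaffold protein of the complex, was at 0.27 (adjusted p = 0.051), and 0 of 3 scaffold genes passed (2 at an unadjusted p under 0.05). Of 9 mitochondrial translation factors Gfm2, which recycles mitochondrial ribosomes, fell by 0.26 (adjusted p = 0.036), and the list median was 0.07.

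None of the 14 genes of tRNA charging partners and editing passed the same test (1 higher and 1 lower at an unadjusted p under 0.05; median -0.01), nor did any of 10 genes of uncharged tRNA sensing and eIF2 (0 at an unadjusted p under 0.05; median 0.06). Of 22 interferon gamma response genes, 3 fell, where 0.683% of all genes did (Iigp1, Irgm2 and Gbp7, all GTPases of cell-autonomous defence), with a median of -0.31. Calls in the ATF4, elongation and interferon gamma lists all went to 0 without WT-Clonidine 2, WT-Clonidine 3 or KO-Clonidine 3. The ATF4 list had 2 calls without WT-Clonidine 1 and 4 without KO-Clonidine 1. Over all libraries left out in turn, the ranges were 0 to 13, 0 to 3 and 0 to 6 calls in these 3 lists. Calls over all genes then ranged from 1 to 517.

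Cell markers moved with this comparison. T cell markers summed to 20.1 to 31.3 CPM in KO-Clonidine tumours and 38.0 to 49.7 CPM in WT-Clonidine tumours, with all 8 of 8 genes below 0 and Cd5 and Cd6 past the test. Endothelial markers, all 5 of 5 below 0, summed to 147 to 162 CPM in KO-Clonidine tumours and 166 to 200 CPM in WT-Clonidine tumours. Erythroid markers, all 4 measured genes of 6 above 0, summed to 403 to 1610 CPM in KO-Clonidine tumours and 88.8 to 177 CPM in WT-Clonidine tumours. Skeletal muscle markers, 6 of 6 below 0, summed to 63.7 to 173 CPM in KO-Clonidine tumours and 148 to 218 CPM in WT-Clonidine tumours. Of the KO-Clonidine libraries 0 of 3 held Y-linked transcripts (mean of Ddx3y, Eif2s3y and Uty above 1 CPM), and of the WT-Clonidine libraries 2 of 3 did. With a term for these transcripts 5 synthetases were called by edgeR (Lars, Mars1, Nars, Sars and Vars). KO-Control, with 2 of 3, and WT-Control, with 3 of 3, differed from KO-Clonidine too. The other comparisons that use KO-Clonidine thus share this imbalance. The part of cell makeup in the synthetase difference was not tested.

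In wild-type hosts clonidine went with lower cytosolic values, without a call by edgeR. In WT-Clonidine against WT-Control tumours the cytosolic median was -0.14, with 18 of 20 genes below 0, against -0.03 for the mitochondrial genes and 0.00 for all genes. At an unadjusted p under 0.05, 9 of 20 cytosolic and 0 of 16 mitochondrial genes were lower, where 6.91% of all genes were. By edgeR's quasi-likelihood test 0 of 36 members passed after adjustment, and so did 0% of all genes. DESeq2 and limma-voom each called 4 members, Sars, Nars, Cars and Aars, where they called 2.65% and 4.81% of all genes in either direction. Without WT-Control 2, edgeR called 1 member, Sars, where it called 0.339% of all genes. Without WT-Control 3 the cytosolic median was -0.0941. This comparison shares the WT-Clonidine libraries with the genotype comparison under clonidine, so neither stands as support for the other.

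Sars had 279, 267 and 259 CPM in WT-Clonidine tumours, against 345, 325 and 353 CPM in WT-Control tumours. Its difference was -0.35 ± 0.066 (adjusted p = 0.077), with all WT-Clonidine libraries below all WT-Control libraries. Nars had 261, 263 and 246 CPM in WT-Clonidine and 308, 300 and 308 CPM in WT-Control tumours, also without overlap (-0.25 ± 0.056, adjusted p = 0.11). Cars had 78.5, 79.4 and 75.6 CPM in WT-Clonidine tumours and 102, 85.8 and 95.9 CPM in WT-Control tumours (-0.28 ± 0.075, adjusted p = 0.16). Aars had 322, 327 and 307 CPM in WT-Clonidine tumours and 388, 375 and 452 CPM in WT-Control tumours (-0.35 ± 0.097, adjusted p = 0.16). The groups did not overlap in any of these 4 genes, and in 7 of the 20 cytosolic genes in all, where 9.81% of all genes were separate in this direction.

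Dars (0.08) and Wars (0.02) were the cytosolic genes above 0 in this comparison. Lars2 was at -0.48, and the other mitochondrial genes lay between -0.12 and 0.12. The smallest p of a mitochondrial gene was that of Rars2, the arginine enzyme, which averaged 25.9 ± 0.831 CPM in WT-Clonidine tumours and 23.9 ± 2.04 CPM in WT-Control tumours (SD, n = 3 each), overlapping (0.12 ± 0.067, edgeR adjusted p = 0.47). The cytosolic change was below the mitochondrial one in 12 of the 13 pairs whose symbols differ only by the 2, with a median gap of -0.18 over the pairs. Trib3 was at -1.01 and Rtcb at -0.31, both with adjusted p = 0.066, and Asns at -0.47 (adjusted p = 0.11). Of the 32 ATF4 list genes 16 were lower at an unadjusted p under 0.05, with a median of -0.29, and 5 of 6 elongation factor genes were too. T cell markers summed to 38.0 to 49.7 CPM in WT-Clonidine tumours and 22.7 to 29.8 CPM in WT-Control tumours, with 8 of 8 genes above 0. Endothelial markers, 5 of 5 above 0, summed to 166 to 200 CPM in WT-Clonidine tumours and 137 to 164 CPM in WT-Control tumours. Erythroid markers, all 4 measured genes of 6 below 0 with a median of -1.05, summed to 88.8 to 177 CPM in WT-Clonidine tumours and 173 to 292 CPM in WT-Control tumours. The part of these markers was not tested.

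In Adra2a KO hosts the cytosolic genes under clonidine lay near their level under PBS. In KO-Clonidine against KO-Control tumours the cytosolic median was 0.05, 0 of 20 genes had an unadjusted p under 0.05, and 0 of 36 members passed by edgeR, DESeq2 or limma-voom, where edgeR called 0.0186% of all genes. Without single libraries the cytosolic median was 0.0082 (without KO-Clonidine 1), 0.0284 (without KO-Control 1) and 0.0846 (without KO-Clonidine 2). Sars had 372, 339 and 371 CPM in KO-Clonidine tumours, against 339, 374 and 384 CPM in KO-Control tumours. These ranges overlapped, and the difference was -0.02 (95% interval -0.16 to 0.12). The mitochondrial median was 0.05, with Yars2 at 0.22, Aars2 at 0.20 and Iars2 at -0.17, all at an unadjusted p under 0.05, where 5.53% of all genes were. KO-Clonidine lay wholly above KO-Control in 1 of 20 cytosolic and 1 of 16 mitochondrial genes, and in 4.41% of all genes. It lay wholly below in 0 cytosolic and 2 mitochondrial genes, and in 4.42% of all genes. The cytosolic change was above the mitochondrial one in 7 of the 13 pairs and below in 6, with a median gap of 0.02. Yars2, the tyrosine enzyme, had 26.7, 26.6 and 27.0 CPM in KO-Clonidine tumours and 23.9, 23.9 and 21.3 CPM in KO-Control tumours, without overlap (adjusted p = 0.87). Aars2, for alanine, averaged 18.9 ± 1.51 CPM in KO-Clonidine tumours and 16.4 ± 1.57 CPM in KO-Control tumours (SD, n = 3 each), overlapping (edgeR adjusted p = 0.88). Iars2, for isoleucine, had 71.4, 75.2 and 72.9 CPM in KO-Clonidine tumours and 83.3, 77.7 and 85.8 CPM in KO-Control tumours, without overlap (adjusted p = 0.86). Cell markers moved here too. All 4 measured erythroid genes were higher at an edgeR unadjusted p under 0.05, with a median of 1.91, where 2.74% of all genes were. Of T cell genes 7 of 8 were below 0 (2 at that level), where 2.79% of all genes were lower. Of fibroblast genes 5 of 6 were above 0 (2 at that level). Their part in the synthetase values was not tested.

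The dependence of the clonidine response on host Adra2a was tested directly, as the change in wild-type hosts minus the change in KO hosts. The cytosolic median was -0.19, with 19 of 20 genes below 0 and 9 at an unadjusted p under 0.05, where 4.86% of all genes were lower at that level. By edgeR 0 members passed after adjustment, and 0% of all genes did; DESeq2 and limma-voom called 0 members as well. The smallest adjusted p was 0.40, for Nars at -0.29 ± 0.079. Sars was at -0.33 (95% interval -0.52 to -0.13), Cars at -0.35 and Yars at -0.33. The mitochondrial median was -0.03, and Yars2, at -0.30, was the 1 gene with an unadjusted p under 0.05. Cell markers moved here too. For T cell markers 8 of 8 genes were above 0 with a median of 0.96, and 5 were higher at an unadjusted p under 0.05. All 4 measured erythroid genes were lower at that level, with a median of -2.96. The 6 fibroblast markers were all below 0 (2 at that level), and the 5 endothelial markers were all above 0 (1 at that level). Their part in the synthetase values was not tested.

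**Figure D4:**
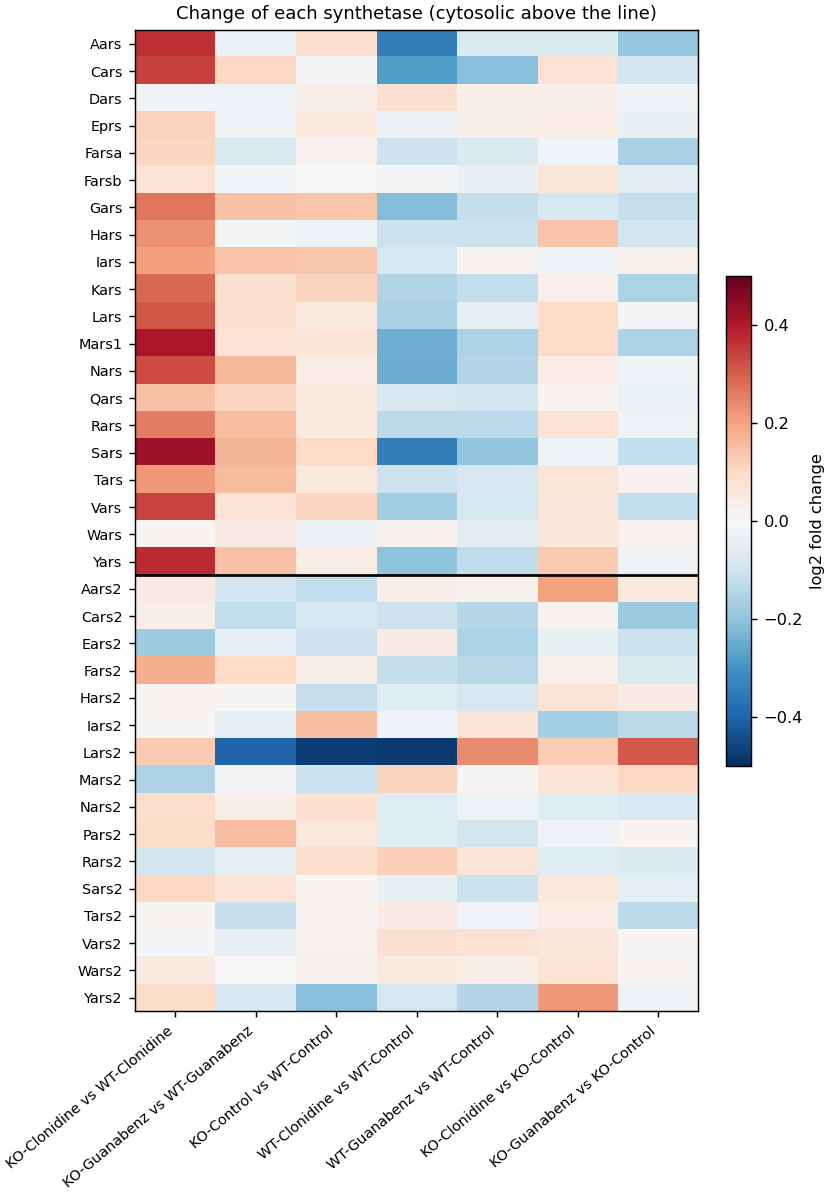
Log2 fold change of each of the 36 synthetases (rows, cytosolic above the black line) in 7 comparisons (columns), each the first-named group over the second; the colour scale spans 0.5 log2 units in either direction. The cytosolic block is mostly red for KO-Clonidine over WT-Clonidine and mostly blue for WT-Clonidine over WT-Control; Lars2 varies most.

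Guanabenz was set against PBS in both host genotypes. In WT-Guanabenz against WT-Control tumours the cytosolic median was -0.09 with 17 of 20 genes below 0, and the mitochondrial median was -0.02. The cytosolic change was below the mitochondrial one in 12 of the 13 pairs, with a median gap of -0.09. The cytosolic median was -0.0257 without WT-Control 3, -0.0552 without WT-Guanabenz 3 and -0.154 without WT-Control 2. At an unadjusted p under 0.05, 3 cytosolic genes were lower (Sars at -0.20, Cars at -0.21 and Nars at -0.15), where 6.24% of all genes were. Sars had 315, 294 and 286 CPM in WT-Guanabenz tumours and 345, 325 and 353 CPM in WT-Control tumours, without overlap (adjusted p = 0.28). Nars had 291, 262 and 274 CPM in WT-Guanabenz tumours and 308, 300 and 308 CPM in WT-Control tumours, also without overlap (adjusted p = 0.34). Cars had 82.1, 79.2 and 84.0 CPM in WT-Guanabenz tumours and 102, 85.8 and 95.9 CPM in WT-Control tumours, likewise without overlap (adjusted p = 0.32). WT-Guanabenz lay wholly below WT-Control in 3 of 20 cytosolic and 1 of 16 mitochondrial genes, and in 8.18% of all genes. No member passed by edgeR, DESeq2 or limma-voom, and edgeR called 0% of all genes. Among cell markers, 2 of 6 macrophage and monocyte genes and 1 of 5 neutrophil genes were higher at an edgeR unadjusted p under 0.05. Lower at that level were 1 of 6 fibroblast and 1 of 6 skeletal muscle genes. Of all genes 5.18% were higher and 6.24% lower. The part of these markers was not tested.

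In KO-Guanabenz against KO-Control tumours, with the label conflict of the KO-Guanabenz libraries, the cytosolic median was -0.04 and the mitochondrial median -0.03. Below 0 were 17 of 20 cytosolic and 9 of 16 mitochondrial genes. The cytosolic change was above the mitochondrial one in 6 of the 13 pairs and below in 7, with a median gap of -0.0026. Without KO-Control 2 the cytosolic median was -0.0818, and without KO-Guanabenz 3 it was -0.0704. Farsa, Tars2, Cars2 and Iars2 were lower at an unadjusted p under 0.05, at -0.16, -0.13, -0.18 and -0.13, where 8.37% of all genes were lower. No member passed by any of the 3 tools (smallest adjusted p = 0.30, Farsa), and edgeR called 0.0124% of all genes. Farsa had 75.6, 74.4 and 83.2 CPM in KO-Guanabenz tumours and 89.8, 88.6 and 82.6 CPM in KO-Control tumours, overlapping by 1 library. Tars2, for threonine, had 45.8, 45.1 and 44.4 CPM in KO-Guanabenz tumours and 47.9, 49.1 and 51.2 CPM in KO-Control tumours, without overlap. Cars2, for cysteine, had 21.5, 19.7 and 24.4 CPM in KO-Guanabenz tumours and 25.7, 24.4 and 24.1 CPM in KO-Control tumours, and these overlapped. KO-Guanabenz lay wholly below KO-Control in 4 of 20 cytosolic genes (Aars, Kars, Mars1 and Vars) and 2 of 16 mitochondrial genes. It did so in 1693 of all 16115 genes. It lay wholly above in 0 cytosolic and 0 mitochondrial genes, and in 1464 of all genes. Cell markers moved here too. All 6 fibroblast genes were above 0 (4 at an edgeR unadjusted p under 0.05), where 6.73% of all genes were higher at that level. All 6 skeletal muscle genes were below 0 (4 at that level), where 8.37% of all genes were lower. Of T cell genes 5 of 8 were above 0 (1 at that level). The part of these markers was not tested.

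The guanabenz effect in WT minus that in KO hosts had a cytosolic median of -0.01 and a mitochondrial median of -0.04. No member passed by the 3 tools, and edgeR called 0.00621% of all genes; Iars2, at 0.20, was the 1 member with an unadjusted p under 0.05, where 5.71% of all genes were. The cytosolic median changed sign without single libraries, at 0.0103 without WT-Guanabenz 3, 0.0083 without KO-Guanabenz 3 and 0.001 without WT-Control 3, and was -0.0708 without WT-Control 2.

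Clonidine and guanabenz were set against each other in wild-type hosts, at doses not given in the labels. Clonidine carries an imidazoline ring and guanabenz an open guanidine group. In WT-Clonidine against WT-Guanabenz tumours the cytosolic median was -0.06 and the mitochondrial median 0.03. Without WT-Guanabenz 1 the cytosolic median was -0.0136, and without WT-Clonidine 3 it was -0.0308. Aars had 322, 327 and 307 CPM in WT-Clonidine tumours and 387, 433 and 338 CPM in WT-Guanabenz tumours, without overlap, a difference of -0.28 (95% interval -0.48 to -0.07; adjusted p = 0.96). Sars differed by -0.15 (interval -0.29 to -0.01; adjusted p = 0.96), again without overlap. These were the 2 members lower at an unadjusted p under 0.05, where 2.48% of all genes were. The share of all genes without overlap was not computed for this comparison. No member passed by the 3 tools, and edgeR called 0% of all genes. An adjusted p of this size does not show that both drugs act alike.

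Host genotype was also compared without drug. In KO-Control against WT-Control tumours the cytosolic median was 0.05 and the mitochondrial median 0.01, no member passed by the 3 tools, and edgeR called 0.00621% of all genes. At an unadjusted p under 0.05, 0 cytosolic genes differed, while Iars2 was at 0.15 and Yars2 at -0.21, where 3.69% of all genes passed that level. The cytosolic median was 0.0222 without WT-Control 2 and 0.0896 without WT-Control 3. Iars2 had 83.3, 77.7 and 85.8 CPM in KO-Control tumours and 73.5, 67.3 and 81.5 CPM in WT-Control tumours, overlapping. Yars2 had 23.9, 23.9 and 21.3 CPM in KO-Control tumours and 25.1, 29.4 and 25.4 CPM in WT-Control tumours, without overlap. The share of all genes without overlap was not computed here.

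Under guanabenz, KO-Guanabenz against WT-Guanabenz tumours had a cytosolic median of 0.08 and a mitochondrial median of -0.05. The cytosolic median was 0.0309 without WT-Guanabenz 3, 0.0542 without KO-Guanabenz 3 and 0.132 without KO-Guanabenz 2. Nars (0.16), Sars (0.17) and Rars (0.15) were higher at an unadjusted p under 0.05, where 3.62% of all genes were. Nars had 300, 311 and 316 CPM in KO-Guanabenz tumours and 291, 262 and 274 CPM in WT-Guanabenz tumours, without overlap (adjusted p = 0.55). Sars had 343, 351 and 313 CPM in KO-Guanabenz tumours and 315, 294 and 286 CPM in WT-Guanabenz tumours, overlapping by 1 library (adjusted p = 0.57). The share of all genes without overlap was not computed for these groups. No member passed by the 3 tools, and edgeR called 0.0186% of all genes.

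Averaged over the 3 treatments, KO against WT hosts gave 2 calls among the members, where 0.285% of all genes rose. Sars rose by 0.23 ± 0.038 (adjusted p = 0.016) and Nars by 0.18 ± 0.032 (adjusted p = 0.032). The cytosolic median was 0.15, with 19 of 20 genes above 0 and 14 higher at an unadjusted p under 0.05, where 9.65% of all genes were. The mitochondrial median was -0.02, with no call by edgeR. DESeq2 called 9 of the 36 members, where it called 4.32% of all genes, and limma-voom called 7, where it called 2.25% of all genes. This average includes the clonidine groups, with a cytosolic median of 0.26, beside 0.08 under guanabenz and 0.05 under PBS, and it includes the KO-Guanabenz libraries with their label conflict. Over all genes, edgeR called 67 in either direction here, and 7 to 111 with single libraries left out. Without WT-Clonidine 3, or without KO-Guanabenz 1, no member was called. Only 1 was called without any 1 of WT-Clonidine 1 or 2, WT-Control 2, WT-Guanabenz 2, KO-Clonidine 1 or 3, KO-Control 1 or 2, or KO-Guanabenz 2.

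A pair of relations was computed across all 18 libraries. Log2 levels of Sars and Trib3 had a Pearson r of 0.867 (permutation p = 1e-05, the smallest that 100000 resamples can give; adjusted p = 2e-05) and a Spearman rho of 0.82 (permutation p = 8e-05; adjusted p = 0.00016). Without WT-Clonidine 1 and WT-Clonidine 2, the libraries farthest from the median of Trib3, r was 0.811. The permutations did not keep the groups fixed, so these p values also hold the group differences given above. Within groups, as deviations from group means, r was 0.366, for which no p was computed. Trib3 averaged 44.1 ± 6.08 CPM in KO-Clonidine tumours and 21.8 ± 1.15 CPM in WT-Clonidine tumours (SD, n = 3 each), and the 3 WT-Clonidine libraries were the lowest of all 18 for both genes.

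**Figure D5:**
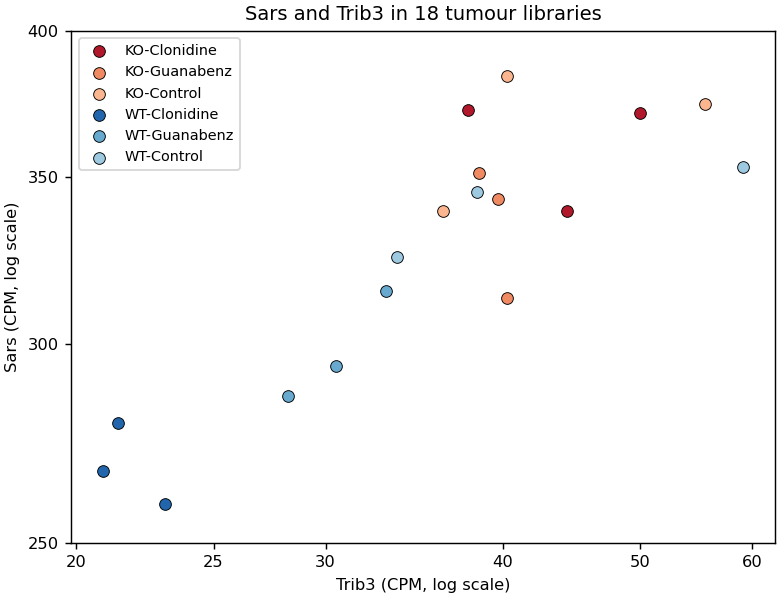
Sars against Trib3 in CPM, both axes on a log scale; each point is 1 of 18 libraries, coloured by group. The 3 WT-Clonidine libraries lie at the lower left, at 20.9 to 23.1 CPM of Trib3 and 259 to 279 CPM of Sars.

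Wars and the interferon gamma list, taken as the mean of its 22 genes, had no detectable relation: r was -0.096 (permutation p = 0.71; adjusted p = 0.71) and rho 0.026 (permutation p = 0.92; adjusted p = 0.92). Without WT-Guanabenz 3 and KO-Guanabenz 2, r was 0.089, and within groups it was -0.094. Wars had 93.1, 76.7 and 82.4 CPM in KO-Clonidine tumours and 85.5, 85.1 and 79.9 CPM in WT-Clonidine tumours, overlapping.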

How the data were processed

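The deposited table held estimated counts per Entrez gene as whole numbers in 18 columns, made by the authors with Trim Galore 0.6.5 and kallisto 0.46.0 on GRCm38, per the submitters' processing notes; no source used here states the step from transcripts to genes. Entrez IDs were named from RefSeq (20994 of 21015 matched; the rest held at most 0.022% of a library). Counts were fitted with edgeR 4.0.16 in R 4.3.3: filterByExpr (16115 genes), TMM scaling, 6 group means over all 18 libraries, quasi-likelihood tests and Benjamini-Hochberg adjustment; standard errors and 95% intervals came from the same fit (12 residual and 4.36 prior degrees of freedom; biological coefficient of variation 0.144). The 11 comparisons shared control groups. The fit was tested on simulated data first. Transcript lengths were those of GENCODE M21 principal transcripts. Relations used scipy 1.17.1 and shared sequence blastn 2.17.0. Alternatives were RLE scaling, total counts, other filters, DESeq2 1.42.0, limma 3.58.1 (voom), a replicate block, the groups alone, both readings of the conflicting label, and each library left out. Values per library are given for called members, otherwise for the members with the smallest p; Dars, Wars and Sars2 were added after their values were seen. Members and gene lists were chosen with earlier results of these data known. With 54683838 to 491137160 counts per library, the spread between 3 libraries sets the precision.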

Additional observations from a re-analysis of the deposited data

How the results depend on the processing

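Directions of the cytosolic medians held in every alternative run except for the guanabenz effect in WT minus KO hosts, which ran from -0.0708 to 0.0103 without single libraries. For KO-Clonidine against WT-Clonidine, the 8 called members became 2 with total counts, 0 with the groups fitted alone, 5 without the KO-Guanabenz libraries, 2 with those read as KO-Control and 5 with a term for Y-linked transcripts (chosen after seeing the data); RLE scaling, no filter, a stricter filter and the replicate block each left 7, and DESeq2 and limma-voom gave 11. Leaving out single libraries gave 0 to 10, where calls over all genes ran from 1 to 517 and were 403 with all libraries. No mitochondrial gene was called in any of these settings. With total counts the cytosolic and mitochondrial medians were 0.175 and -0.048, and for the clonidine effect in WT minus KO hosts -0.105 and 0.0527; the median of all genes was then -0.09 and 0.09. For WT-Clonidine against WT-Control, DESeq2 and limma-voom each called 4 members, and leaving out single libraries gave 0 to 1. Over all genes, leaving out single libraries gave 0 to 55 calls there. Averaged over treatments, KO against WT hosts gave 1 call with total counts, 9 with DESeq2, 7 with limma-voom and 0 to 3 without single libraries. Over all genes, this average gave 7 to 111 calls without single libraries. Mitochondrial medians without single libraries ran from -0.0515 to 0.0325 for WT-Clonidine against WT-Control, from -0.0968 to 0.0228 for KO-Guanabenz against KO-Control, from -0.0426 to 0.0263 for KO-Control against WT-Control, from -0.0237 to 0.0549 for WT-Clonidine against WT-Guanabenz, from -0.0972 to -0.0072 for the clonidine effect in WT minus KO hosts and from -0.0652 to 0.0314 for the guanabenz effect, which was 0.0244 with limma-voom. The r of Wars with the interferon gamma list was 0.201 with total counts and -0.15 to 0.048 without single libraries. Replicate numbers did not pair the libraries (correlations of deviations between same-numbered libraries from -0.332 to 0.253, median 0.009). The cause of these shifts was not tested.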
